A study of Mus musculus with 2 samples.

Results

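Mir191 and Mir425 are neighbouring miRNA genes of the Dalrd3 locus on mouse chromosome 9, and their counts were taken here from the intestine of 2 newborn mice. The members are 2 of 1973 miRNA genes counted in each library. They were picked by identifier: Mir425 on the strand of its own annotation, and Mir191 through Gm24083, an annotated miRNA gene that covers the Mir191 hairpin on the other strand. Reads opposite to Gm24083 therefore lie on the strand of Mir191, and these are called Mir191 counts below. The identifier of Mir191 itself was not among the 1973 analysed here. The members were chosen with their counts known, so their levels, their order and their strand are given as a description, without a test.

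Both libraries came from pups of strain B6NCrl at postnatal day 0, called pup 1 and pup 2, with 1 library of microRNA sequencing each. No genotype change or treatment is named in the labels, so no comparison of conditions exists. The labels place both pups with 1 pregnant female and give an RNA size range below 30, a tissue named intestine without a segment, and no sex. Sequencing depth was 6375694 reads for pup 1 and 8373497 for pup 2. Multi-mapped reads made up 30.0% ± 0.382 of each library on average (SD, n = 2) and enter no gene's count. The pups stood far apart in 2 miRNAs of the Hox clusters, named after their values were seen: Mir196b had 7337 counts in pup 1 and 310 in pup 2, and Mir196a-2 had 272 and 35, which are log2 ratios of 4.93 and 3.32, pup 1 over pup 2.

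A miRNA is cut from a hairpin in a longer transcript, first by Drosha in the nucleus and then by Dicer in the cytoplasm, and either arm of the hairpin can be loaded into an Argonaute protein. Bases 2 to 8 of the loaded strand, the seed, pair with target messages. Mir191 is expressed in many tissues and is often used as a reference RNA in qPCR of miRNAs. In mouse erythroblasts miR-191 is known to act on the loss of the nucleus, and in human cells miR-425-5p is known to act on the message of atrial natriuretic peptide. Dalrd3 encodes a protein that takes part in the methylation of certain transfer RNAs.

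The mature sequences below, from RefSeq on GRCm38.p6, are shown because they are what the counted reads can hold, with the seed in capitals, 5′ to 3′.
mmu-miR-191-5p: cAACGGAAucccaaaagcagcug
mmu-miR-191-3p: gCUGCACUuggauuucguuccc
mmu-miR-425-5p: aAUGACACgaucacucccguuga
mmu-miR-425-3p: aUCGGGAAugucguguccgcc
The 4 seeds differ from each other. Among 1674 distinct mature sequences of the RefSeq table, 0 other miRNAs had the seed of miR-191-5p, miR-191-3p or miR-425-3p. The seed of miR-425-5p was shared with 1, miR-489-3p, and its gene Mir489 had 1 count in pup 1 and 0 in pup 2, no more than the 3 counts that a count of 0 allows. The counts are per gene, so the arms could not be counted apart.

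The hairpins, with both mature arms in capitals, and the Gm24083 transcript are shown next, since the reads were counted over these intervals.
Mir191: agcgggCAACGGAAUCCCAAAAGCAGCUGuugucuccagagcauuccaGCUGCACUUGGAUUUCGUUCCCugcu
Mir425: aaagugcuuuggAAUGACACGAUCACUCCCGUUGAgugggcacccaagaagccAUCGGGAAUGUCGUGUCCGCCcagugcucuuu
Gm24083: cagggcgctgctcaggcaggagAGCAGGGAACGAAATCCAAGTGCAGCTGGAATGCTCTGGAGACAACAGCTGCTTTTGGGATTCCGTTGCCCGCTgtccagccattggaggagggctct
The last line is the annotated Gm24083 transcript as DNA letters from GENCODE M21, with the reverse complement of the Mir191 hairpin in capitals. It holds all 74 bases of that hairpin and runs 24 bases past it on the left of the plus strand and 22 on the right. A read from Mir191 thus reads as the opposite strand of Gm24083. The Mir191 hairpin is 74 bases long with 54.1% G and C, and the Mir425 hairpin is 85 bases long with 54.1%. The longest run that either shares with any of 1004 other RefSeq hairpins is 12 bases, and the run they share with each other is 7 bases. Both runs are shorter than a mature miRNA, whereas matches elsewhere in the genome were not searched.

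On GRCm38, Mir191 lies at chr9:108568319-108568392 and Mir425 at chr9:108568777-108568861, both on the plus strand and 384 bases apart. Gm24083 lies at chr9:108568295-108568414 on the minus strand. The annotations differ on what surrounds them. RefSeq places both within the span of Dalrd3, chr9:108567484-108572773. In GENCODE M21 Dalrd3 begins at chr9:108569886, 1024 bases past the end of Mir425, and both miRNAs lie inside the non-coding gene 4833445I07Rik, chr9:108567533-108569174. Of its 2 annotated transcripts, 1 has a single exon that holds both miRNAs. The other has Mir191 in its intron and ends before Mir425. Of the genes counted, no other with a read lay nearby: 4 further miRNA genes within 1000000 bases, Gm26298, Gm23156, Mir711 and Mir7088, had 0 counts in both pups, which allows up to 0.838 CPM in pup 1 and 0.638 CPM in pup 2.

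**Figure D1:**
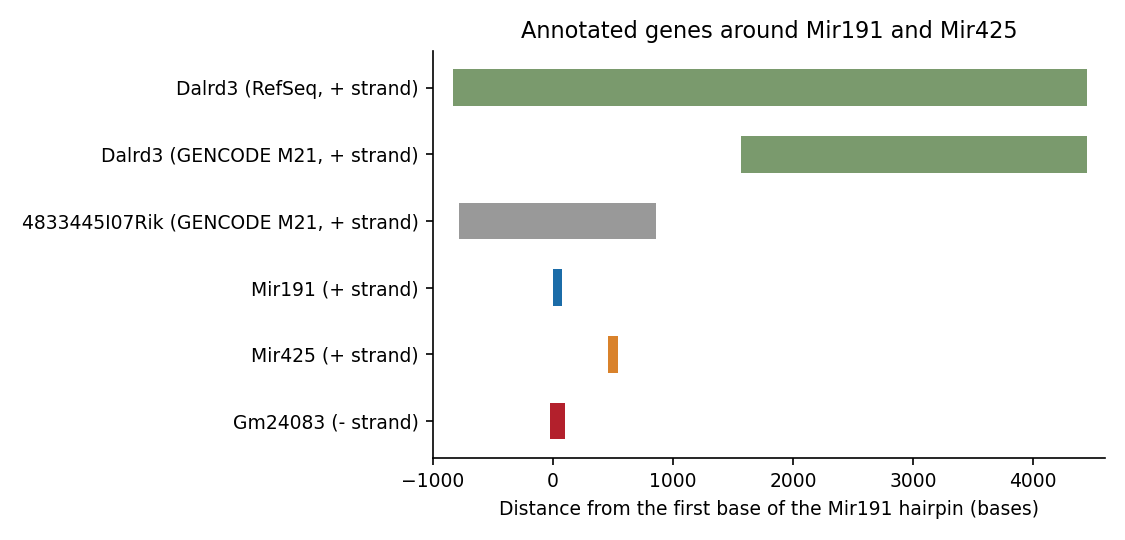
The map shows annotated genes around Mir191 and Mir425, with distance in bases from the first base of the Mir191 hairpin on the horizontal axis and 1 bar per gene and annotation. The Dalrd3 bar of RefSeq covers both miRNAs, while the Dalrd3 bar of GENCODE M21 starts to the right of Mir425.

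Reads at Mir191 fell wholly on its own strand. The Gm24083 interval held 12308 reads in pup 1 and 16142 in pup 2 opposite to Gm24083, and 0 reads on the strand of Gm24083 in both pups. The opposite share was 100% in each pup, with lower 95% bounds of 99.97% in pup 1 and 99.98% in pup 2 (exact Clopper-Pearson, counting error only, since amplified reads carry no molecular identifiers and need not be separate molecules). Mir425 was the reverse case, with 6711 reads on its annotated strand and 1 opposite read in pup 1, and 11290 and 2 in pup 2. Its opposite share was 0.0149% in pup 1 (0.000377 to 0.0830%) and 0.0177% in pup 2 (0.00215 to 0.0640%). Neither locus thus held more than a few reads from the strand that faces the miRNA.

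Gm24083 was 1 of 11 genes, of 324 with at least 10 reads on either strand in each pup, whose reads lay mostly on the opposite strand in both pups. This is 3.40% of the 324, while 312 had most reads on the annotated strand and 290 had 0 opposite reads in both pups. Each of the 11 overlapped a miRNA gene of GENCODE M21 on the facing strand. The 5 with the most opposite reads were Gm25301 with 84076 in pup 1 and 107200 in pup 2 facing Mir378a, then Gm24083, then Gm25927 with 8163 and 9914 facing Mirlet7e, Gm25252 with 6237 and 7487 facing Mir376a, and Gm24321 with 4411 and 5842 facing Mir409. Gm24083 ranked second and took 9.75% of all opposite reads in pup 1 and 10.02% in pup 2.

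**Figure D2:**
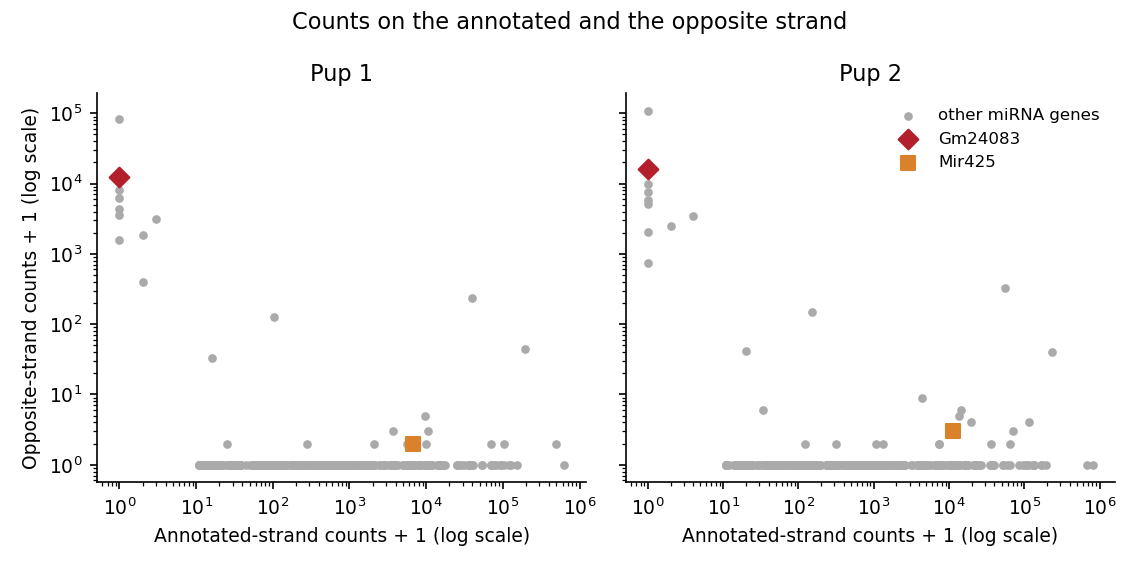
Each point is 1 of 324 miRNA genes, with annotated-strand counts plus 1 on the horizontal and opposite-strand counts plus 1 on the vertical log axis, pup 1 on the left and pup 2 on the right. Gm24083 stands at 12308 and 16142 opposite reads with none on its own strand, while Mir425 stands among the genes at the foot of the plot.

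Both members were well above the middle of the detected miRNAs. The level of a gene is its share of all counts in miRNA genes, Mir191 reads included, scaled to 1000000 (CPM), and a gene with 10 or more counts in both pups is called detected. A read covers a whole mature miRNA, so CPM was not scaled to length. Capture of small RNA depends on sequence, and this bias, shared by the pups, is part of every level compared between miRNAs. In bulk tissue, fewer cells that hold a miRNA and less of it per cell cannot be told apart.

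Mir191 had 3438 CPM in pup 1 (95% Poisson interval 3378 to 3499) and 3434 CPM in pup 2 (3382 to 3488). The pups were closer than the counting error of either library, so their mean of 3436 ± 2.55 CPM (SD, n = 2) has an SD too small to stand for the precision. It ranked 39th in pup 1 and 40th in pup 2, and by its mean 274 of 315 detected genes lay below it. Mir425 had 1875 CPM in pup 1 (1830 to 1920) and 2402 CPM in pup 2 (2358 to 2447). These intervals do not overlap, and Mir425 was the higher in pup 2. Its mean was 2138 ± 373 CPM, its rank 58 in pup 1 and 50 in pup 2, and 259 of the 315 lay below it by mean. The median detected gene had 145 CPM, so Mir191 stood 23.7-fold and Mir425 14.7-fold above it. Multi-mapped reads, 30.0% of each library on average, enter no count, so miRNAs with identical copies stand too low. The ranks, the numbers of genes below and these folds may therefore place both members too high. Together the members took 0.531% of counts in pup 1 and 0.584% in pup 2. Of 16 detected genes on chromosome 9, Mir191 ranked 2 and Mir425 ranked 4. Mirlet7g, a let-7 gene, stood above both, and Mir100, also clustered with let-7, stood between them.

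In order of mean level, Mir191 was 41st. Mir652 (3656 ± 361 CPM), Mir93 (3541 ± 301 CPM), a paralog of the miR-17-92 cluster, and Mir182 (3470 ± 1022 CPM), of the miR-183 cluster, stood next above it. All 3 had a pup on either side of the Mir191 values, so Mir191 did not differ from them beyond the spread of the pups. Next below it were Mir15a (3296 ± 98.2 CPM), a cell-cycle miRNA, Mir130b (2962 ± 25.3 CPM) and Mir379 (2931 ± 555 CPM), an imprinted miRNA of the Dlk1-Dio3 domain. All 3 were below Mir191 in both pups. Mir379 reached 3324 CPM in pup 1 and 2539 CPM in pup 2.

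Mir425 was 56th, and its range across the pups covered the genes next above it: Mir140 (2302 ± 3.76 CPM), known from cartilage, Mirlet7f-2 (2265 ± 56.5 CPM) and Mir18 (2223 ± 65.7 CPM), of the miR-17-92 cluster. Next below it, Mir16-1 (1935 ± 154 CPM), the cell-cycle partner of Mir15a, overlapped the range of Mir425 across the pups too. Within each pup Mir16-1 was below Mir425, at 1826 against 1875 CPM in pup 1 and 2044 against 2402 CPM in pup 2. Mir423 (1798 ± 96.1 CPM) and Mir139 (1772 ± 16.6 CPM) lay below the whole range of Mir425 in both pups. Mirlet7f-2 and Mir16-1 have near-identical copies elsewhere, and multi-mapped reads enter no count, so their levels are lower limits and their place in this order is uncertain. The order also leaves out miRNAs that, like Mir191, are read opposite to an annotated gene. With all 11 such genes counted on the opposite strand, an alternative chosen after seeing the data, Mir191 was 42nd and Mir425 58th, since Gm25301 came above both and Gm25927 above Mir425.

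**Figure D3:**
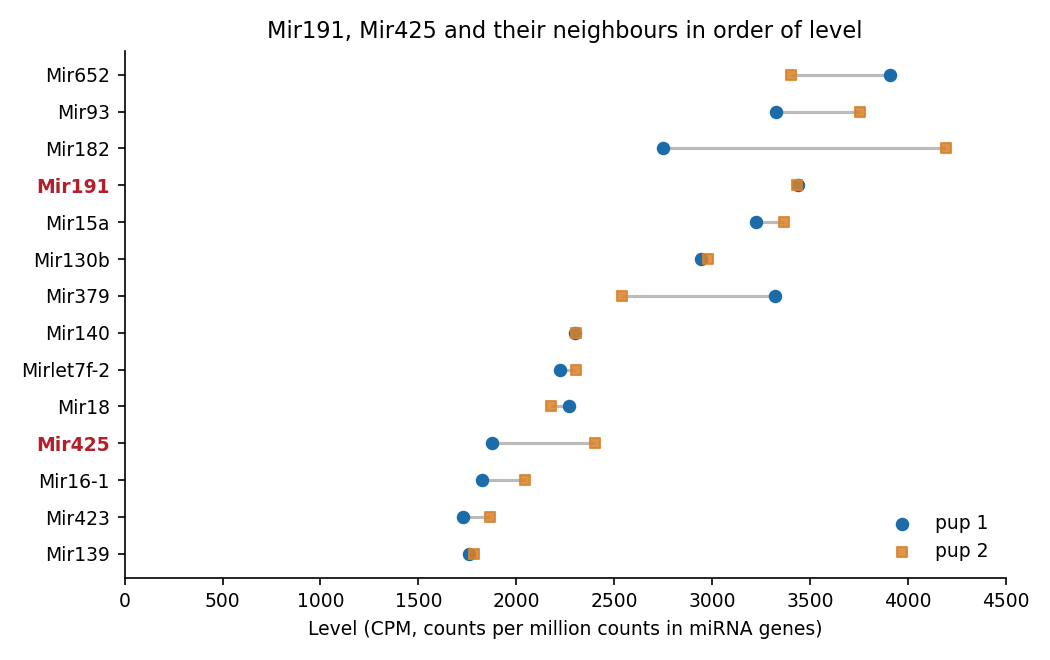
Levels in CPM are on the horizontal axis for Mir191, Mir425 and the 3 genes next above and below each, ordered from the highest mean at the top, with a circle for pup 1 and a square for pup 2. The Mir191 symbols coincide at 3438 and 3434 CPM, while those of Mir425 lie at 1875 and 2402 CPM and lie on either side of Mir140, Mirlet7f-2 and Mir18.

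The genes most like each member over the 2 pups were found by Euclidean distance in log2 CPM. For Mir191 these were Mir15a at a distance of 0.096, Mir93 at 0.14 and Mir652 at 0.19. For Mir425 they were Mir16-1 at 0.24, Mirlet7f-2 at 0.25 and Mir140 at 0.30. With 2 libraries such a distance says little beyond a like level, and all 3 genes near Mir425 were farther off than those near Mir191. The nearest genes, Mir15a and Mir16-1, are themselves neighbours of 1 cluster on chromosome 14.

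Mir191 exceeded Mir425 in both pups, and by more in pup 1. The ratio of Mir191 to Mir425 counts was 1.83 in pup 1 (95% interval 1.78 to 1.89, exact binomial) and 1.43 in pup 2 (1.40 to 1.46). Mir191 thus made up 64.7% of the reads of the pair in pup 1 and 58.8% in pup 2. The mean log2 ratio was 0.70 ± 0.25 (SD, n = 2), or 1.62-fold. The log2 ratio differed by 0.36 between pup 1 and pup 2 (0.30 to 0.41, exact conditional interval for counting error only). This difference needs no scaling of the libraries, and it was computed after the values were seen.

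Ratios of other neighbouring miRNA genes were mostly larger. Among miRNA genes on the same strand within 10000 bases of each other and with at least 10 counts in each pup, 99 other neighbouring pairs had a median log2 ratio, higher over lower member, of 2.70, with quartiles of 1.25 and 4.45. Of these pairs, 14 (14.1%) had a smaller ratio than Mir191 over Mir425. The pairs nearest to it were Mir302a over Mir302d with 0.67, Mir15a over Mir16-1 with 0.77 and Mir300 over Mir376c with 0.79. The smallest ratio was 0.08 for Mir532 over Mir188 and the largest 9.56 for Mir20a over Mir19b-1. Between the pups the Mir191 pair was less steady than most: its SD of 0.25 compares with a median SD of 0.13, and 26 of the 99 pairs had a larger one. These SDs include counting error, which is larger for pairs with few counts. With at least 100 counts, 13 of 78 other pairs had a larger SD, and the median SD was 0.11. Pairs that share a gene are not independent, and a member with identical copies is undercounted, which widens some ratios. The ratio comparison is a description of these libraries.

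**Figure D4:**
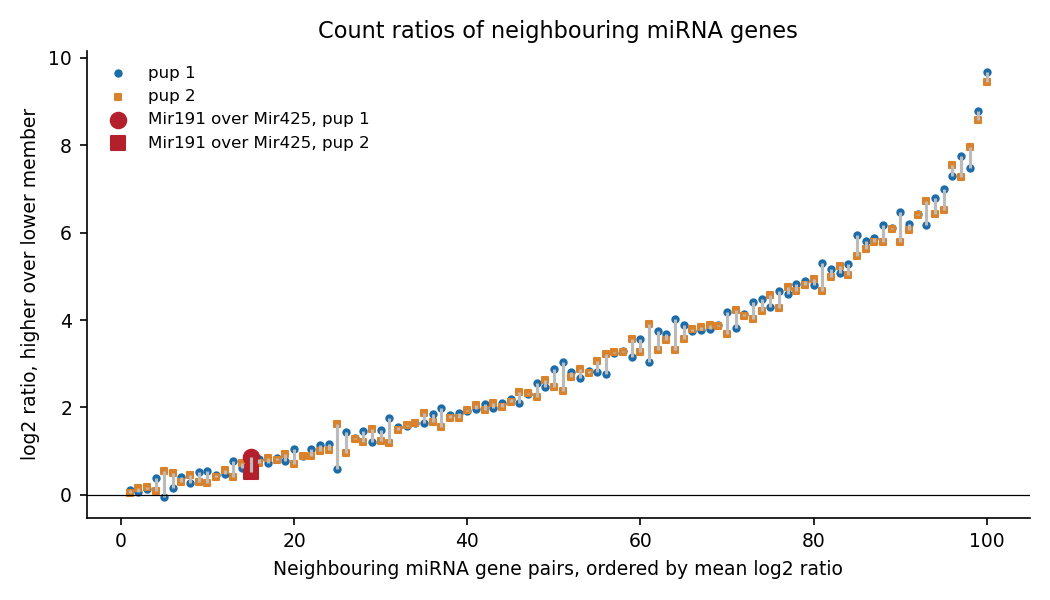
The log2 ratio of the higher over the lower member is on the vertical axis for 100 neighbouring miRNA gene pairs, ordered by mean ratio along the horizontal axis, with a circle for pup 1 and a square for pup 2. Mir191 over Mir425, in red at 0.87 in pup 1 and 0.52 in pup 2, lies at the low end, with 14 pairs below it.

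Between the 2 libraries Mir425 was apart by more than counting error, and Mir191 did not pass the test with TMM scaling. A 2-sided exact binomial test, with library sizes scaled by TMM, set pup 1 against pup 2 for each of 315 detected genes, with Benjamini-Hochberg adjustment over all 315. Such a test compares 2 libraries against counting error alone, with no replicate of either animal, so its p-values do not show a difference beyond the spread between animals. Mir425 had a log2 ratio, pup 1 over pup 2, of -0.39 (95% interval -0.43 to -0.34, adjusted p = 2.25e-68, exact binomial test), which is 1.31-fold higher in pup 2. Mir191 had a log2 ratio of -0.03 (-0.06 to 0.0049, adjusted p = 0.190, exact binomial test). Of all 315 genes 39.4% were called, 20.0% higher and 19.4% lower in pup 1, and 1 call among 2 members is near that share. Calls were more frequent at the levels of the members. Within 2-fold of the mean level of Mir191, 25 of 31 other genes were called, and 28 of 42 within 2-fold of Mir425. The split of calls was 63 higher and 61 lower in pup 1 (50.8% higher), against 74 and 53 (58.3%) with total-count scaling and 45 and 88 (33.8%) with upper-quartile scaling.

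In absolute size, 85.1% of the 315 genes were closer between the pups than Mir425 and 13.0% closer than Mir191. The median absolute log2 ratio of all 315 was 0.18. Among 42 genes within 2-fold of the mean level of Mir425, 40 were closer than it was, with a median of 0.11. Among 31 genes within 2-fold of Mir191, 3 were closer, with a median of 0.16. The direction for Mir191 depended on scaling: its log2 ratio was 0.0015 with total counts, and with upper-quartile scaling it was -0.094 and passed (adjusted p = 2.55e-07, exact binomial test). Mir425 was lower in pup 1 and passed under each scaling tried, from -0.36 with total counts to -0.45 with upper quartile.

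Mir191 is one of several miRNAs used as reference RNAs in qPCR, and 13 of 14 in a list of these were tested. Of the 13, 5 were called lower and 1 higher in pup 1, beside 19.4% lower and 20.0% higher of all 315 genes. Their median absolute log2 ratio was 0.19, close to the 0.18 of all 315. With upper-quartile scaling 7 were called lower and 1 higher, beside 88 lower and 45 higher of the 315. Mir191 and Mir361 (-0.065, adjusted p = 0.0299, exact binomial test) then passed too. Several of the 13 are copies of 1 miRNA, and the split of their calls was not tested. Mir191 was the third closest to 0, after Mir361 (1548 CPM in pup 1 and 1516 CPM in pup 2) and Mir24-2 (234 and 229 CPM), and it ranked between 1 and 4 under the other settings. Mir25 (472 and 452 CPM) and Mir26a-2 (56.4 and 57.4 CPM) did not pass either, with log2 ratios of 0.03, which was -0.03 with upper-quartile scaling, and -0.06. Mir93 (-0.20), Mir16-1 (-0.19), Mir423 (-0.14), Mir16-2 (-0.35) and Mir103-2 (-0.52) were called lower in pup 1, and Mir186 (0.21) was called higher. Mir26a-1 and Mir103-1 had 0.22 and -0.77 from 60 and 16 counts in pup 1 and did not pass. Mir103-1, Mir103-2, Mir26a-1, Mir26a-2, Mir16-1, Mir16-2 and Mir24-2 belong to copies with like mature sequences, so their counts are lower limits. By mean level Mir191 came next to Mir93, which was below Mir191 in pup 1 and above it in pup 2. Mir24-1 was not used here.

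**Figure D5:**
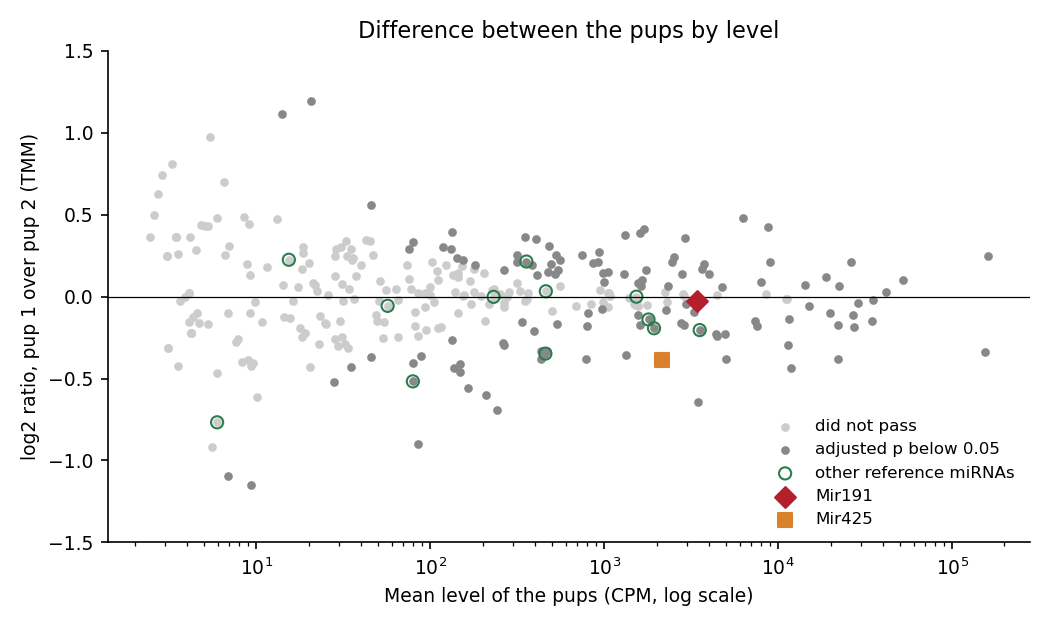
The log2 ratio, pup 1 over pup 2, after TMM scaling is on the vertical axis and the mean level in CPM on the horizontal log axis, with 1 point per detected gene, dark where the adjusted p was below 0.05 and ringed for the other reference miRNAs. Mir191 lies at -0.03 and Mir425 at -0.39, and 2 genes beyond 1.5 on the log2 scale are outside the axis.

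Marker miRNAs of cell types were read beside these values. All 12 listed for the epithelium of the intestine were detected, with a summed level of 315233 CPM in pup 1 and 362663 CPM in pup 2. Mir215, Mir194-1 and Mir194-2 made up 84.7% of the rise of that sum in pup 2, while Mir375, Mir429 and Mir192 had log2 ratios of -0.01, -0.02 and -0.04. Smooth muscle Mir143 and Mir145a summed to 180433 CPM in pup 1 and 149614 CPM in pup 2. Mir143 had 175899 and 145200 CPM, while Mir145a had 4534 and 4414 CPM, a log2 ratio of 0.0083 with TMM scaling. Endothelial Mir126a had 54446 and 49620 CPM. Of the red cell markers, Mir451a had 60.1 CPM in pup 1 and 110 CPM in pup 2, Mir144 had 39.7 and 35.5 CPM, and the list of 3 with Mir486 summed to 101 and 147 CPM, below Mir191 and Mir425 alike. On the annotated strand, leukocyte markers summed to 1252 CPM in pup 1 and 1498 CPM in pup 2 over 5 detected of the 6 found of 7. Mir342 (691 and 880 CPM) and Mir223 (370 and 420 CPM) led these 5. Mir146 had 89.4 and 101 CPM, Mir150 had 65.1 and 61.7 CPM, and Mir155 had 36.6 and 36.2 CPM. Mir142b had 0 counts on its annotated strand in both pups. Opposite to it, facing Mir142, lay 3607 reads in pup 1 and 5139 in pup 2. These exceed the 2473 and 4135 counts of Mir342, so the sum leaves out the leukocyte marker with most reads. Liver Mir122 had 28.8 and 12.3 CPM, and the neural list summed to 1185 and 1188 CPM over 2 detected of the 7 genes found of 8. There Mir124a-1, Mir124a-2, Mir124a-3 and Mir9-2 were at 0, which does not show absence, since they are copies with identical mature sequences and multi-mapped reads enter no count. The epithelial, erythroid and leukocyte sums were higher in pup 2, as Mir425 was, and so by little was the neural sum. Of the 2 detected neural genes, Mir138-1 had 118 and 156 CPM and Mir137 had 1067 and 1030 CPM. The smooth muscle, endothelial and liver lists were lower in pup 2. Within these lists Mir375, Mir429, Mir144, Mir150, Mir155 and Mir137 had lower CPM in pup 2. For Mir375, Mir429 and Mir155 this depended on scaling. With TMM scaling their log2 ratios were -0.01, -0.02 and -0.01, the direction of Mir425. Mir144, Mir150 and Mir137 had 0.13, 0.05 and 0.02 with TMM scaling, the opposite direction. The part of these cell types in the Mir425 difference was not tested.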

How the data were processed

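Small RNA libraries of 2 pups were analysed as deposited. The authors deposited raw read counts per miRNA gene against mm10 with GENCODE M4, per the file headers of the accompanying text. Neither aligner nor counter is named (not given in the sources used here). From their sums, the 3 columns of counts hold reads on either, the annotated and the opposite strand. Names and positions came from GENCODE M21 on GRCm38, which held 1894 of the 1973 identifiers, and the other 79 had 0 counts. Totals of unmapped, multi-mapped and unassigned reads stayed out of library sizes and tests. The reads used were 3579966 in pup 1 and 4700081 in pup 2.

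Gm24083 entered with its opposite-strand counts and every other gene with annotated-strand counts. TMM factors came from edgeR 4.0.16 and, as an alternative, size factors from DESeq2 1.42.0, in R 4.3.3. Tests and intervals used scipy 1.17.1 at the 95% level with an adjusted p threshold of 0.05. The code was also run on simulated Poisson counts at a known library ratio. That run holds no spread between animals and no TMM scaling, so it cannot show how the test behaves on these libraries. With 1 library per pup, edgeR's own tests have no replicates to use. The members and lists were chosen with earlier results of these data known. Named were the members, 3 neighbours in level on each side, the 3 most like genes, the reference and marker lists, the 5 genes with most opposite reads, genes within 1000000 bases, and the 3 nearest and the extreme pairs. The reference miRNA and marker lists rest on general knowledge, not on these files. Alternatives were other scalings, denominators, count minimums of 1 and 100, both strands together, a pseudocount of 0.5, pairs within 1000 bases and each pup alone.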

Additional observations from a re-analysis of the deposited data

How the results depend on the processing

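The mean Mir191 level was 3448 CPM over annotated-strand counts alone, 1929 CPM with all reads as denominator, 3332 with reads of either strand and 3332 with all 11 opposite-strand genes counted there, each a shift larger than its small SD. With all reads as denominator Mir425 stood at 1200.4 CPM. Leaving out each pup gave 3434 to 3438 CPM for Mir191, 1875 to 2402 CPM for Mir425, 0.52 to 0.87 for their log2 ratio and 11 to 12 genes read mostly on the opposite strand. The log2 ratio of Mir191, pup 1 over pup 2, changed sign to 0.0015 with total counts and passed at -0.094 with upper-quartile scaling, by construction of the library sizes. The median log2 ratio of the other neighbouring pairs was 2.55 within 1000 bases and 1.87 with at least 100 counts, where fewer low-count pairs remained. Of the reference miRNAs, Mir361 passed with upper-quartile scaling (-0.065) and was above 0 with total counts (0.03), as Mir24-2 was (0.03), and Mir25 was below 0 with upper-quartile scaling (-0.03). Mir425 kept its direction and passed under each scaling, minimum and strand setting tried, and the genes called between the pups numbered 119 to 133, beside 124. The share called depended on the count minimum. It was 22.7% of 537 genes with a minimum of 1 count and 52.2% of 228 with a minimum of 100, beside 39.4% of 315. No paired analysis was possible because the series has 1 group. With 1 library per animal, p-values reflect counting error only, and the spread between animals rests on 2 values.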
